A study of Homo sapiens with 18 samples.

Results

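The translation initiation and elongation factor genes are the 63 protein-coding genes on chromosomes 1 to 22 whose symbols begin with EIF1 to EIF6 or with EEF1 or EEF2, leaving out the eIF2 kinases, of 19122 protein-coding genes on those chromosomes. They were chosen by symbol alone. Peaks were assigned to them from 6 deposited lists of chromatin immunoprecipitation sequencing (ChIP-seq) peaks of MDA-MB-231 cells, a long-established culture derived from triple-negative breast cancer, grown in medium with serum, glutamine and nonessential amino acids. KDM2B, MYC, H3K4me3, H3K27me3 and H2AK119ub were profiled in the parental line, and H3K27ac in cells carrying an empty vector, with 2 libraries per target and 1 deposited list per target. Libraries for ATF4 were not analysed here, and the inputs of both cell stocks carry no list of their own. A target was assigned to a gene if a peak reached, by 1 bp or more, into the 1 kb on either side of an end of the gene record. The fold is the authors' value of signal over background at the summit of the peak, and where a gene had several peaks the highest was taken. Each value is therefore 1 number per target with no spread between libraries, and folds were compared only within a list. As a check of the cell line, 8 of 8 mesenchymal genes fixed as its markers had H3K4me3 and H3K27ac and 0 of 8 had H3K27me3. Of 7 luminal or epithelial breast genes, 4 had H3K4me3 (ESRP1, FOXA1, GATA3 and PGR), 2 had H3K27ac (FOXA1 and GATA3) and 1 had H3K27me3 (GRHL2).

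Translation begins when eIF2 brings the initiator tRNA to the small ribosomal subunit, with eIF1, eIF1A, eIF3 and eIF5 guarding the choice of start codon. The cap of the mRNA is held by eIF4E, which joins the scaffold eIF4G and the helicase eIF4A, and the 4E-binding proteins compete with eIF4G for eIF4E. The exchange factor eIF2B reloads eIF2 with GTP and is blocked when eIF2 is phosphorylated, the step by which lack of amino acids lowers initiation and favours translation of ATF4. In elongation, eEF1A delivers aminoacyl-tRNA, the eEF1B subunits recharge it, eEF2 moves the ribosome along the mRNA, and eIF5A helps the ribosome past difficult peptide bonds. Many of these genes are classic MYC targets. KDM2B is a histone demethylase with a zinc finger that binds unmethylated CpG DNA and is a subunit of the Polycomb complex ncPRC1.1. H3K4me3 marks active promoters, H3K27ac active promoters and enhancers, H2AK119ub is written by PRC1 and H3K27me3 by PRC2. The study asked how KDM2B, with ncPRC1.1, MYC and ATF4, bears on amino acid metabolism, and translation is the main consumer of amino acids.

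Promoter sequences are shown for the genes with the highest KDM2B and MYC folds (EIF5A for both), the runner-up for MYC (EEF1B2), the highest MYC fold without KDM2B (EIF3D), the gene with the highest H3K27ac fold (EEF1A1), the highest MYC fold among genes with an E-box (EIF4G1), and a gene with no peak of any target (EIF2S3B). EEF1B2, EIF4G1 and EIF2S3B were added to the set after their values were seen. Each stretch runs 5′ to 3′ on the gene's strand from 250 bases before an annotated start to 50 bases from it, from RefSeq on GRCh38.p14. CpG dinucleotides, the letters that the zinc finger of KDM2B reads, and the E-box CACGTG, a site that MYC and its partner MAX bind, are in capitals.
EIF5A, chr17:7308123-7308422, plus strand: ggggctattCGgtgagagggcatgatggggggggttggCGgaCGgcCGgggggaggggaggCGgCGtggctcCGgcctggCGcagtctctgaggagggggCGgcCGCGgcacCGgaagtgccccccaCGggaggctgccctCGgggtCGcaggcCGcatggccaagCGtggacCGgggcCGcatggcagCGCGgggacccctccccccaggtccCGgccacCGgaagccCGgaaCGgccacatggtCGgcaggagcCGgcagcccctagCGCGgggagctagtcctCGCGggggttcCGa
EEF1B2, chr2:206159645-206159944, plus strand: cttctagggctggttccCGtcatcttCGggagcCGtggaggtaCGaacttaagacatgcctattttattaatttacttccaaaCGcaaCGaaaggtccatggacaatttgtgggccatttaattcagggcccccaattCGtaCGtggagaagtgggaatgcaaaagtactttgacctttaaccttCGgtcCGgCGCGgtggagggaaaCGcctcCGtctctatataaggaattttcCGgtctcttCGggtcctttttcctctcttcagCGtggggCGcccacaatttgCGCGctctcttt
EIF3D, chr22:36529117-36529416, minus strand: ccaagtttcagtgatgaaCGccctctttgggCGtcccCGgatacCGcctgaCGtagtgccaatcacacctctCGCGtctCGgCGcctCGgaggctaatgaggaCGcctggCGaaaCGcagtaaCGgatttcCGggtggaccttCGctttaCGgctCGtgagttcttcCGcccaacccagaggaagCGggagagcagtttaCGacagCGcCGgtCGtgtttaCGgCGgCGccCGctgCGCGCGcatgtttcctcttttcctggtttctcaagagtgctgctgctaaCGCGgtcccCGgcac
EEF1A1, chr6:73520983-73521282, minus strand: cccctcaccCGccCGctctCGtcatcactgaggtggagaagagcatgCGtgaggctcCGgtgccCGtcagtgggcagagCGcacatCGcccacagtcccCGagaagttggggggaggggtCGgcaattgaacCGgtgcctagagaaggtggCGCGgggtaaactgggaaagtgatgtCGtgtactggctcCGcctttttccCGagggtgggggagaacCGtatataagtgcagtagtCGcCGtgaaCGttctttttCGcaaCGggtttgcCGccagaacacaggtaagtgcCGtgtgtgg
EIF4G1, chr3:184314356-184314655, plus strand: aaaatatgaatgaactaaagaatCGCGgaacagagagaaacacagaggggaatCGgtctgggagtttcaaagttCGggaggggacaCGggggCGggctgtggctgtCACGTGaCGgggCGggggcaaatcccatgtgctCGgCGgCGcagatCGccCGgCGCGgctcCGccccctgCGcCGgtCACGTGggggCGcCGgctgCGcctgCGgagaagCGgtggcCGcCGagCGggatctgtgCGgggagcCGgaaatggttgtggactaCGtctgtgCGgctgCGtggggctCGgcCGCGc
EIF2S3B, chr12:10505640-10505939, plus strand: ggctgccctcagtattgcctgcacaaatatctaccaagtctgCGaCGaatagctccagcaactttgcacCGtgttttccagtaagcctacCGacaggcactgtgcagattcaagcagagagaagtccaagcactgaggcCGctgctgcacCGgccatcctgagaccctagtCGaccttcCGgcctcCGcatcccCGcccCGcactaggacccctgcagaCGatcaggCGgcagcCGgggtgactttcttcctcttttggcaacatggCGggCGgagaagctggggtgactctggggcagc
The EIF5A stretch holds 32 CpGs, that of EIF4G1 36, that of EIF3D 34, that of EEF1A1 24, that of EEF1B2 20 and that of EIF2S3B 16. The EIF4G1 stretch holds 2 E-boxes, whose first bases lie at -144 and -67 from the start, and the other stretches hold none. EIF5A and EEF1B2 each have more than 1 annotated start, and the start nearest the MYC summit is the one shown.

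Of the 63 genes, 43 had KDM2B at an end (68.3%), against 48.3% of all protein-coding genes on chromosomes 1 to 22. MYC was at 58 (92.1% against 65.0%), H3K4me3 at 59 (93.7% against 70.1%) and H3K27ac at 58 (92.1% against 64.4%). The marks of Polycomb complexes were rarer than over all genes, with H2AK119ub at 15 of the translation factor genes (23.8% against 46.6%) and H3K27me3 at 6 (9.52% against 27.1%). Every translation factor gene with KDM2B also had MYC, so KDM2B and MYC were together at 43 genes, against 48.0% of all genes. KDM2B without MYC was rare throughout, at 60 of the 19122 genes (0.314%). The most frequent pattern was KDM2B, MYC, H3K4me3 and H3K27ac with neither Polycomb mark, at 36 genes (57.1% against 27.1%). The same pattern with H2AK119ub added was at 5 genes (7.94% against 16.1%), and the pattern without KDM2B and without Polycomb marks at 9 genes (14.3% against 9.47%).

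**Figure D1:**
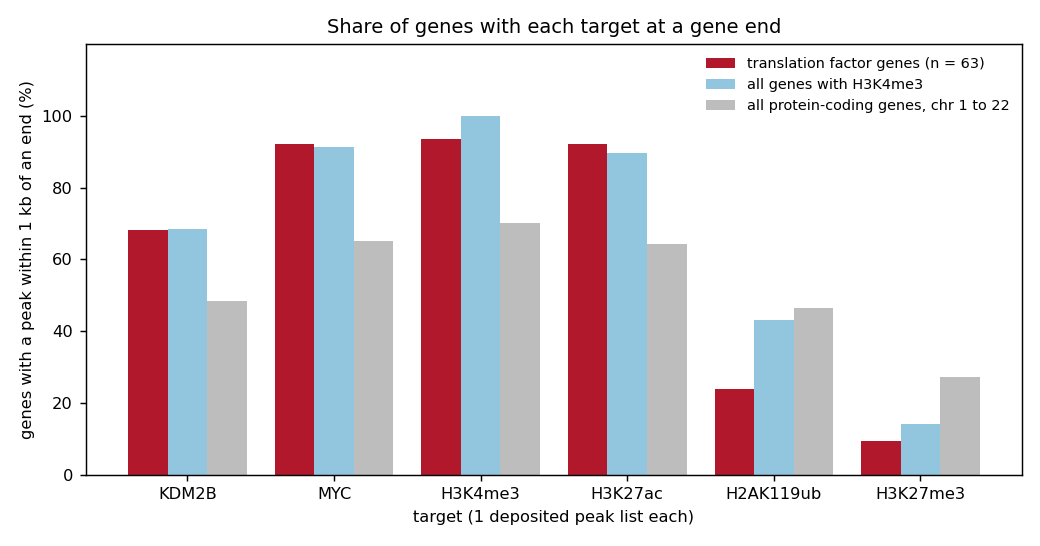
Percentage of genes (vertical axis) with a peak within 1 kb of a gene end for each target (horizontal axis), for the 63 translation factor genes, for all protein-coding genes with H3K4me3 and for all protein-coding genes on chromosomes 1 to 22. KDM2B was at 68.3% of translation factor genes and 48.3% of all genes, whereas H2AK119ub was at 23.8% and 46.6%.

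Among genes with H3K4me3, 43 of 59 translation factor genes had KDM2B (72.9%), near the 68.6% of all 13410 genes with H3K4me3. MYC was at 58 of these 59 genes (98.3% against 91.3%) and H3K27ac at 58 (98.3% against 89.6%). The lower share with H2AK119ub held within genes with H3K4me3, at 13 of 59 (22% against 43.2%), and H3K27me3 was at 4 (6.78% against 14.0%). The 4 genes without H3K4me3 at an end were EIF2S3B, EIF4EBP3, EIF4E3 and EIF5AL1. Those without MYC at an end were the same 4 and EIF4ENIF1, and those without H3K27ac at an end the same 4 and EEF1A2.

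The strength of the peaks set MYC and KDM2B apart. The median MYC fold of the 58 genes was 21.8, against 11.5 for all genes with MYC, and 24 of them lay in the top 10% of all genes. The median KDM2B fold of the 43 genes was 4.03, against 3.91 for all genes with KDM2B, with a range of 2.43 to 5.65, and 1 gene, EIF5A, lay in the top 10%. KDM2B at these genes was thus common but of ordinary strength, and MYC was strong. H3K27ac had a median of 43.5 against 25.1, with 17 of 58 genes in the top 10%, and H3K4me3 a median of 50.2 against 43.4, with 13 of 59. The fold of H2AK119ub, where present, had a median of 2.55 against 2.88, and that of H3K27me3 a median of 2.80 against 3.51. H3K4me3 peaks at these genes had a median width of 8146 bp, against 6146.5 bp over all genes with the mark, and MYC peaks 2458 bp against 1728 bp. KDM2B peaks were of similar width, 566 bp against 555 bp. H2AK119ub peaks were narrower, 369 bp against 795 bp. A wide peak can reach a gene end with its summit far from it, as the H3K27ac peak of EIF1AD did with a summit at -13914 bp from the nearest start.

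**Figure D2:**
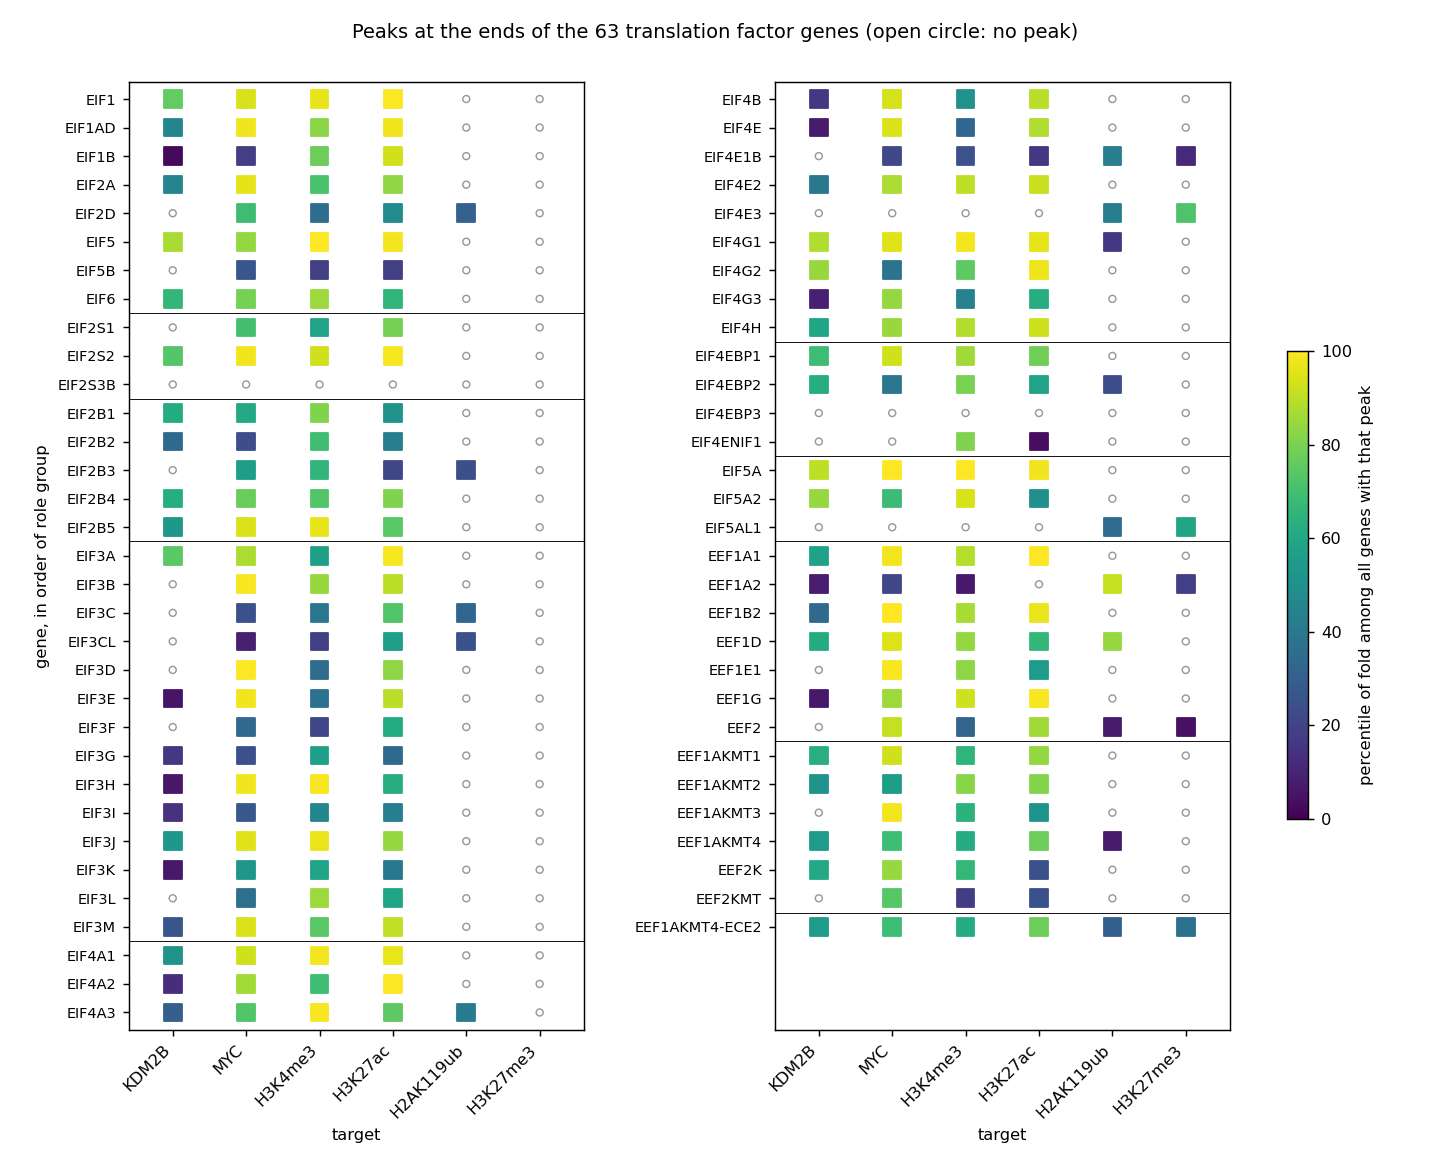
Each row is 1 of the 63 translation factor genes, in order of role group, and each column 1 target. A filled square is a peak at a gene end, coloured by the percentile of its fold among all genes with that peak, and an open circle is no peak. EIF4E3 and EIF5AL1 carry squares only for H2AK119ub and H3K27me3, and most other rows carry squares only for the first 4 targets.

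EIF5A, the gene of the factor that carries hypusine, had the highest KDM2B fold of the 63 genes, 5.65, at chr17:7307706-7308826. Its MYC fold of 118 was the highest of the 12434 genes with MYC, at the peak chr17:7307513-7309965 that ranked 2 of 49833 peaks of the list. The same gene had an H3K4me3 fold of 79.1, rank 17 of 13410 genes, and an H3K27ac fold of 79.4. The KDM2B and MYC summits lay at -66 and -42 bp from the start at 7308373, inside the sequence printed above. EIF5A2, its paralogue, had nearly the same KDM2B fold, 5.22, and a MYC fold of 15.5. The pair thus shared KDM2B and differed in MYC and in H3K27ac, which was 24.8 at EIF5A2. EIF5AL1, another gene of the family, had no KDM2B, MYC, H3K4me3 or H3K27ac, and carried H3K27me3 over 94.7% of its record with 1 kb on each side.

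Among the elongation factors, 7 of 7 had MYC and 5 of 7 had KDM2B (100% and 71.4%, against 65.0% and 48.3% of all genes). EEF1B2, which encodes an exchange factor subunit for eEF1A, had a MYC fold of 86.8, the second highest of all genes with MYC, and a KDM2B fold of 3.49. Its peaks were shared with the end of the neighbouring gene NDUFS1, so they cannot be given to either gene alone. EEF1A1, which encodes the main carrier of aminoacyl-tRNA, had the highest H3K27ac fold of all 95771 peaks in the list, 145, with a MYC fold of 43.5 and a KDM2B fold of 4.16. Its H3K27ac peak covered the whole record with 1 kb on each side, whereas its KDM2B summit lay at -652 bp, that is, before the start. EEF1G had MYC at 22.5 and KDM2B at 2.68 at its start, where H3K27ac had a fold of 53.3. Its highest H3K27ac fold, 95.6, was in a peak at the far end that is shared with AHNAK. EEF1D had folds of 4.26 for KDM2B and 32.6 for MYC, in peaks shared with TIGD5. EEF1E1, which encodes a scaffold protein of the multisynthetase complex, and EEF2, the translocase gene, lacked KDM2B and had MYC folds of 50.5 and 27.2.

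EEF1A2, the paralogue of EEF1A1 that is normally used in neurons and muscle, showed the reverse picture. It had the lowest H3K4me3 fold of the 59 genes, 7.55, no H3K27ac at an end, and a MYC fold of 6.62. It also had the highest H2AK119ub fold of the 15 genes with that mark, 4.04, at percentile 91.4 of all genes with it. That peak, chr20:63487320-63488097, and the H3K27me3 peaks at an end lay at the end of lower coordinate. KDM2B, MYC and H3K4me3 were at the other end alone. H2AK119ub was at both ends and overlapped the KDM2B peak, whereas H3K27me3 did not. The strand of EEF1A2 was not at hand. H2AK119ub covered 86.7% of the EEF1A2 record with 1 kb on each side and H3K27me3 36.4%. KDM2B was present at EEF1A2 with a fold of 2.74 at chr20:63498189-63498552. EEF1A1 carried neither Polycomb mark.

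All 14 eIF3 genes, which encode subunits of the largest initiation factor, had MYC, H3K4me3 and H3K27ac. The shares of all genes were 65.0%, 70.1% and 64.4%. KDM2B was at 8 of the 14 genes (57.1%, against 48.3% of all genes). Their KDM2B folds ran from 2.63 at EIF3E to 4.73 at EIF3A, with a median of 3.02, below the median of all genes with KDM2B. The eIF3 genes with the highest MYC folds, EIF3D at 52.9 and EIF3B at 47.3, had no KDM2B at an end of the record. The MYC peak of EIF3B is shared with SNX8. EIF3B had a KDM2B peak inside its record at chr7:2355143-2355806, with a fold of 4.07. The summit of that peak lay 647 bp into the gene from the annotated start at 2354827, so EIF3B had KDM2B near a start. EIF3D had no KDM2B peak in its record, although its promoter stretch above is rich in CpG. EIF3A also had the highest H3K27ac fold of the eIF3 genes, 87.8, and EIF3H the highest H3K4me3 fold, 69.1. EIF3H, EIF3E, EIF3J and EIF3M had MYC folds of 40.7, 40.2, 33.1 and 31.9, whereas EIF3G and EIF3I stayed at 7.21 and 7.66. The peaks of EIF3H and EIF3I are shared with UTP23 and TMEM234. EIF3C and EIF3CL are near-identical copies, so reads may be divided between them, and the ends of both records had MYC folds of 7.22 and 3.93 and H2AK119ub folds of 2.58 and 2.46. Inside both records lay stronger MYC peaks, with folds of 29.1 at EIF3C and 28.5 at EIF3CL.

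**Figure D3:**
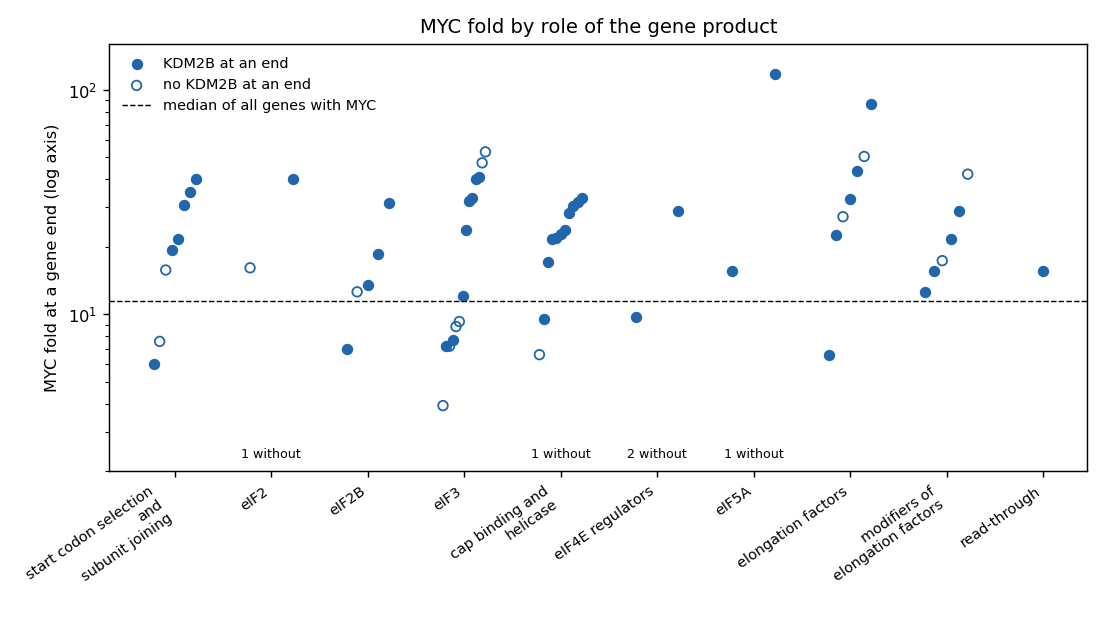
MYC fold at a gene end (vertical log axis) of each of the 58 translation factor genes with MYC, by role of the product (horizontal axis), filled where KDM2B was also at an end and open where not. The dashed line is the median of all genes with MYC, 11.5. EIF5A at 118 and EEF1B2 at 86.8 stand highest, and open circles occur both at the top and at the bottom of the eIF3 genes. EIF3B is drawn open because its KDM2B peak, near an annotated start, lies inside the record.

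Of the 12 genes for cap binding and the helicase, 11 had MYC and 10 had KDM2B (91.7% and 83.3%, against 65.0% and 48.3% of all genes). EIF4G1, which encodes the main scaffold, had a KDM2B fold of 5.48, but that peak, chr3:184335418-184337025, lies at the far end of the gene and is also at an end of FAM131A. At its own start the KDM2B fold was 4.83. EIF4G1 had MYC at 32.8 and H3K4me3 at 66.8. EIF4G2, which encodes a scaffold without the eIF4E site, had KDM2B at 5.26 and MYC at 9.57, and EIF4G3 had KDM2B at 2.78 and MYC at 21.6. The order of KDM2B among these paralogues therefore differed from the order of MYC. The helicase genes EIF4A1 and EIF4A2 had MYC folds of 28.4 and 22.9 and KDM2B folds of 3.98 and 2.94. EIF4A2 had the second highest H3K27ac fold of the translation factor genes, 118, rank 15 of 12317 genes, and EIF4A1 had 72.6. EIF4A3, whose product acts in the exon junction complex, had MYC at 17.1, KDM2B at 3.41 and H3K4me3 at 69.1. EIF4B and EIF4H, which encode helpers of the helicase, had MYC at 30.3 and 21.9 and KDM2B at 3.06 and 4.19.

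The genes of cap-binding proteins split by paralogue. EIF4E had MYC at 31.7 and KDM2B at 2.72, the lowest KDM2B fold of its role group. EIF4E2 had MYC at 23.8 and KDM2B at 3.65, and neither carried a Polycomb mark. EIF4E3 had none of KDM2B, MYC, H3K4me3 and H3K27ac at its ends, and carried H3K27me3 with a fold of 4.38, the highest of the 6 genes with that mark, over 48.7% of its record with 1 kb on each side. A KDM2B peak with a fold of 4.17 lay inside the EIF4E3 record at chr3:71725552-71725951. EIF4E1B, which encodes a germ cell form, carried H2AK119ub at 2.74 and H3K27me3 at 2.31 at its start. Its MYC fold of 6.62 and its H3K4me3 and H3K27ac peaks were at the other end, shared with TSPAN17.

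The genes that restrain eIF4E also differed. EIF4EBP1, which encodes the best known 4E-binding protein, had KDM2B at 4.51 and MYC at 29.0. EIF4EBP2 had a similar KDM2B fold, 4.29, and a MYC fold of 9.73, with H2AK119ub at 2.44. Of the 2 KDM2B peaks at its ends, 1 overlapped an H2AK119ub peak. EIF4EBP3, whose record overlaps a read-through gene with ANKHD1, had no peak of any target at its ends. EIF4ENIF1, which encodes the transporter of eIF4E into the nucleus, had an H3K27ac peak with a fold of 2.79 at an end of its record. An H3K4me3 peak of fold 52.5 reached that end with its summit inside the record. Its outermost annotated start, at 31489842, lies inside the record and beyond the window of that end. At this start lay a MYC peak of fold 29.1, an H3K27ac peak of fold 48.2 and a KDM2B peak of fold 4.17. The KDM2B peak, chr22:31489814-31490266, covered the start, so the gene lacks MYC and KDM2B only by the rule of record ends.

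Of the eIF2 genes on these chromosomes, EIF2S2, the beta subunit gene, had KDM2B at 4.68, MYC at 40.0 and H3K27ac at 86.6. EIF2S1, which encodes the alpha subunit that stress kinases phosphorylate, lacked KDM2B and had MYC at 16.1 in a peak shared with ATP6V1D. EIF2S3B, a copy of the gamma subunit gene, had no peak in any list. All 5 eIF2B genes had MYC (100%, against 65.0% of all genes), from 7.01 at EIF2B2 to 31.3 at EIF2B5. KDM2B was at 4 of the 5 (80%, against 48.3% of all genes), between 3.48 at EIF2B2 and 4.30 at EIF2B4, whose peak is shared with SNX17. It was absent from EIF2B3, which carried H2AK119ub at 2.44.

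The genes grouped under start codon selection and subunit joining, EIF1AD among them, had MYC in 8 of 8 and KDM2B in 6 of 8. These are 100% and 75%, against 65.0% and 48.3% of all genes. The role of each product was not tested. EIF5, which encodes the GTPase activating protein of eIF2, had the highest KDM2B fold of the group, 5.43, at chr14:103334834-103335471, and the second highest H3K4me3 fold of the translation factor genes, 71.0. EIF1 had KDM2B at 4.77, MYC at 30.7 and H3K27ac at 99.3. EIF1B, its paralogue, had the lowest KDM2B fold of the 43 genes, 2.43, and a MYC fold of 6.02. EIF1AD and EIF2A had MYC at 40.3 and 35.2 with the same KDM2B fold to 2 decimals, 3.82. These peaks are shared with BANF1 and SERP1, and the KDM2B summits lay at -733 and -519 bp, before the start. EIF6 had KDM2B at 4.37 at its start and at 4.43 at its far end, where the peak is shared with MMP24. EIF5B, which encodes the GTPase of subunit joining, and EIF2D lacked KDM2B and had MYC at 7.58 and 15.8.

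Of the 6 genes for enzymes that modify elongation factors, 6 had MYC and 4 had KDM2B (100% and 66.7%, against 65.0% and 48.3% of all genes). EEF1AKMT3 had the highest MYC fold of them, 42.1, at a peak shared with METTL1, and no KDM2B. EEF2K, the gene of the kinase that inhibits eEF2, had KDM2B at 4.24 and MYC at 21.7. EEF1AKMT1 had KDM2B at 4.31 and MYC at 29.0, and EEF1AKMT2 had 3.94 and 12.5. EEF2KMT had MYC at 17.4 and no KDM2B. EEF1AKMT4 and the read-through gene EEF1AKMT4-ECE2 share their start, where KDM2B had a fold of 4.05 and MYC of 15.7, so they add 1 locus rather than a pair.

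The 15 genes with H2AK119ub fell into several patterns. EEF1AKMT4, EEF1D, EIF4A3, EIF4EBP2 and EIF4G1 carried it at records that also had KDM2B, MYC, H3K4me3 and H3K27ac at an end. EIF2B3, EIF2D, EIF3C and EIF3CL carried it with the same targets except KDM2B. The targets need not share an end. At EEF1AKMT4 and EEF1D, H2AK119ub was at the other end from KDM2B, and at EIF2D at the other end from MYC. The H2AK119ub fold of 3.71 at EEF1D was the second highest after EEF1A2. Its peak was at the end of lower coordinate, shared with NAPRT, and the strand of EEF1D was not at hand. The others lay between 2.12 and 2.75, below the median of all genes with the mark, 2.88. H3K27me3 was at 6 genes, all of which also had H2AK119ub. After EIF4E3 at 4.38 and EIF5AL1 at 3.83 came EEF1AKMT4-ECE2 at 3.08, EEF1A2 at 2.52, EIF4E1B at 2.31 and EEF2 at 2.01. At EEF2, an essential gene with MYC at its start, both marks lay at the far end, H3K27me3 at chr19:3976456-3976682. Only EEF1AKMT4-ECE2, at 46.6, exceeded the median H3K4me3 fold of all genes, 43.4, among these 6 genes.

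Across the 43 genes with both, KDM2B and MYC folds had a Spearman correlation of 0.121, against 0.150 over the 9184 genes with both. The points share peak lists and neighbouring peaks, so the values are descriptions. KDM2B folds followed H3K4me3 folds more closely, at 0.439 against 0.202 over all genes. MYC folds followed H3K27ac folds at 0.529, against 0.552 over all genes. The 43 genes with KDM2B had a median MYC fold of 22.9, H3K4me3 fold of 52.7 and H3K27ac fold of 48.5. The 15 genes with MYC and no KDM2B at an end, EIF3B among them, had medians of 15.8, 38.7 and 28.2. The same direction held over all genes, where the medians were 13.0, 46.5 and 29.1 for 9184 genes with both and 7.12, 36.6 and 19.0 for 3250 genes with MYC alone. Their H3K4me3 peaks were also narrower, with a median width of 5005 bp against 8182 bp in the 43 genes.

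**Figure D4:**
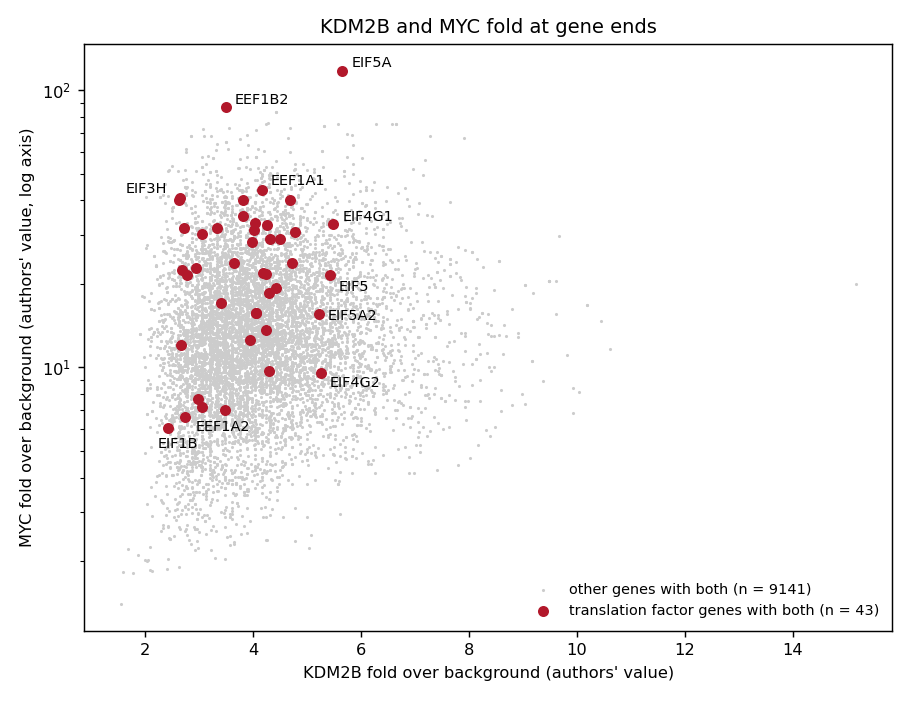
KDM2B fold (horizontal axis) against MYC fold (vertical log axis) at the ends of genes with both, for the 43 translation factor genes and 9141 other genes. The translation factor genes stay at or below a KDM2B fold of 5.65 while EIF5A and EEF1B2 stand at the top of the MYC axis.

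KDM2B lay at the start of these genes. Of the 34 genes with KDM2B and a known strand, 32 had it at the start alone, 2 at both ends and 0 at the far end alone. MYC was at the start alone in 33 of 45 genes, at both ends in 11 and at the far end alone in 1. H2AK119ub was at the start alone in 6 of 12 genes and at the far end alone in 6, among them EEF2, EIF2D and EIF4A3, so a share of it was not at the promoter. At the 36 genes with a KDM2B peak near an annotated start, internal starts included, the median KDM2B summit lay 138.5 bp into the gene, and the peak covered the start itself in 9. The median MYC summit lay 122 bp into the gene at 45 genes, and the MYC peak covered the start in all 45. The KDM2B and MYC summits of a gene were a median of 367 bp apart, from 5 to 1348 bp, and within 100 bp in 8 of 36 genes. Of 67 pairs of a gene and a KDM2B peak at its ends, all 67 overlapped a MYC peak and an H3K4me3 peak, 65 an H3K27ac peak, 5 an H2AK119ub peak and 0 an H3K27me3 peak. Over all genes, 9184 of the 9244 with KDM2B at an end also had MYC, and 9199 had H3K4me3, so the first 2 overlaps are general. Overlaps of single peaks, and the end at which KDM2B lay, were not counted over all genes. The genes with a KDM2B peak that overlapped H2AK119ub were EEF1A2, EEF1D, EIF4EBP2 and EIF4G1. Whole peaks were compared, including parts beyond the window. At EEF1D the overlap lay outside the window with KDM2B, since H2AK119ub reached only the window of the other end.

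**Figure D5:**
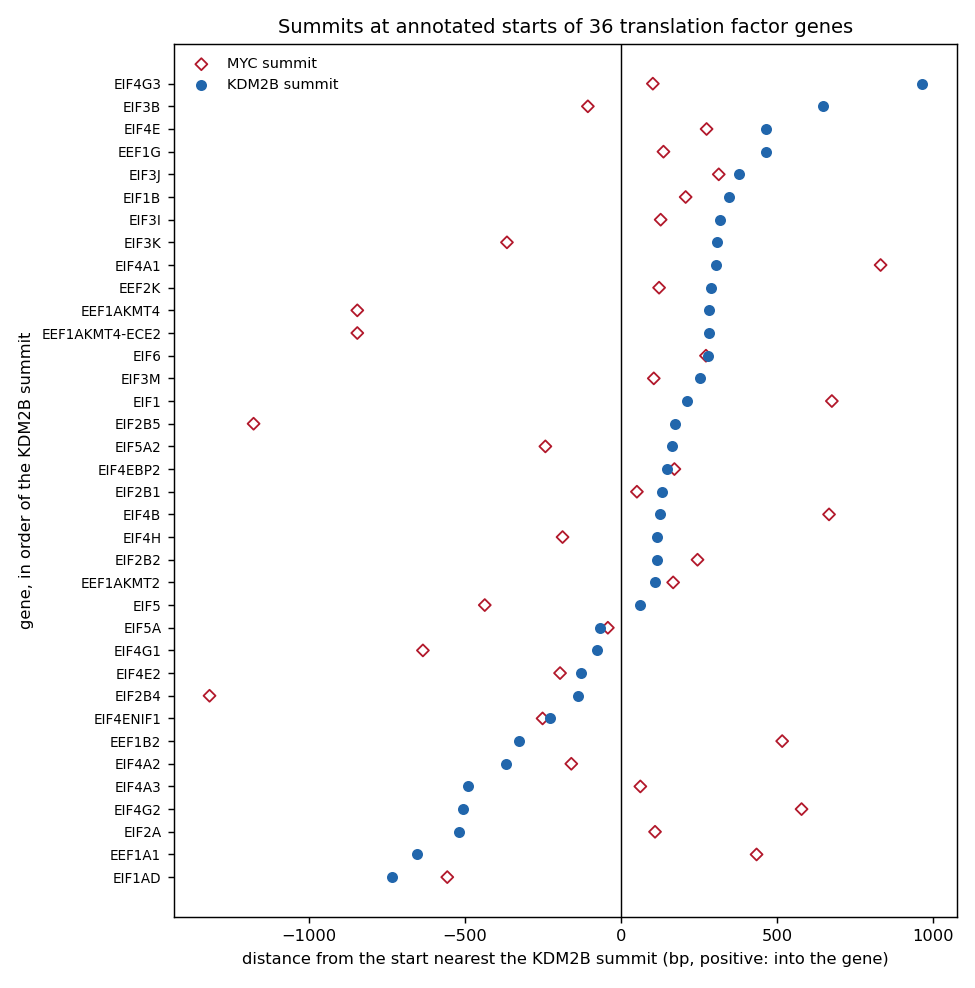
Distance of the KDM2B summit (filled circles) and of the MYC summit (open diamonds) from the annotated start nearest the KDM2B summit, in bp with positive values into the gene, for 36 translation factor genes in order of the KDM2B summit. The summits lie 5 bp apart at EIF6 and 24 bp apart at EIF5A and EIF4EBP2, whereas at genes such as EEF1A1 they lie on different sides of the start.

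A promoter entry with sequence was at hand for 50 of the 63 genes, and 13 genes, EEF1A2 among them, are named only. Each motif was searched on both strands of the 300 bases around the outermost start, and the share of all 15100 genes with an entry is given beside it. The E-box CACGTG was in 14 of 50 stretches, or 28%, against 8.71% of all. Translation factor genes with it had a median MYC fold of 15.7 (13 genes with MYC), and those without it 22.7 (32 genes). Over all genes the order was the other way, 14.8 with the E-box and 11.4 without. The fold is the highest at either end of the record, so the stretch searched need not lie under that peak. For EIF5A the outermost start, 7306999, lies outside its MYC peak at 7307513-7309965. EIF4G1 had the highest MYC fold among translation factor genes with an E-box, and its MYC summit lay at -76 from the start, beside the E-box at -67 in the sequence above.

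The ETS motif CCGGAAG was in 13 stretches (26% against 14.3%) and the YY1 motif AAGATGGC in 4 (8% against 3.87%). The NRF1 core GCATGCGC was in 2 (4% against 4.19%) and TATAAA in 3 (6% against 9.83%). TGATGNAA, a form of the element bound by ATF4, was in 0 of 50 stretches, against 2.54% of all, which says only that these letters are not in these windows. A start of the kind known from terminal oligopyrimidine mRNAs, a C followed by 4 pyrimidines, was at the outermost start of 11 genes (22% against 4.58%): EEF1A1, EEF2, EIF2A, EIF2D, EIF2S3B, EIF3D, EIF3F, EIF3K, EIF3M, EIF4A2 and EIF4B. Such mRNAs are translated under control of mTOR. The EEF1B2 start printed above has the same form. The median number of CpGs in the stretch was 27, against 22 over all genes. It was 27.5 at translation factor genes with KDM2B and 26 at those without, whereas over all genes it was 28 and 11.

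Of 37 other genes of the translation machinery and its control, all 37 had MYC, H3K4me3 and H3K27ac. The shares of all genes were 65.0%, 70.1% and 64.4%. KDM2B was at 23 (62.2%, against 48.3% of all genes), H2AK119ub at 6 (16.2% against 46.6%) and H3K27me3 at 0 (against 27.1%). Their median MYC fold was 15.5 and their median KDM2B fold 3.44. DHPS, which encodes the first enzyme of hypusine synthesis on eIF5A, had KDM2B at 5.24 and MYC at 23.5, while DOHH, the second enzyme, lacked KDM2B and had MYC at 10.8. The highest KDM2B folds were 8.63 at MTIF3, a mitochondrial initiation factor gene, and 6.48 at PPP1R15A, whose product helps dephosphorylate eIF2. EIF2AK4, the gene of the kinase that senses uncharged tRNA, had KDM2B at 3.62 and MYC at 18.0. The X-linked subunit genes EIF1AX and EIF2S3 lacked KDM2B and had MYC at 19.3 and 18.5.

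Of 75 genes of cytosolic ribosomal proteins, 62 had KDM2B (82.7%) and 74 had MYC (98.7%), with median folds of 3.47 and 35.3. The shares were 68.3% and 92.1% of the translation factor genes and 48.3% and 65.0% of all genes. The ribosomal protein genes thus had a higher median MYC fold than the translation factor genes (21.8) and a lower median KDM2B fold (4.03 in the translation factor genes). Of 20 cytosolic aminoacyl-tRNA synthetase genes, 17 had KDM2B (85%) and 20 had MYC (100%), with median folds of 3.44 and 23.6. H3K27me3 was at 2 ribosomal protein genes (2.67%) and 0 synthetase genes (0%), against 27.1% of all genes. No test of these differences was made, since each list is 1 set of values without replicates.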

How the data were processed

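ChIP-seq peak lists of MDA-MB-231 cells were used, 1 list for each of 6 targets, from 2 libraries per target. Trim Galore, Bowtie2 2.4.5, SAMtools 1.6 and MACS2 2.2.7.1 were used with build hg38, per the submitters' processing notes. Chromatin was digested enzymatically, per the labels' protocols. The control of each list, and whether libraries were pooled, are not given in the sources used here. The deposited lists give a score, the authors' ratio (fold) of summit signal to background, a −log10 q-value and the summit's offset in bp. The −log10 p-value column of the 6 lists was not used. Every deposited peak had q under 0.05. The lists hold no counts, so depth and error between libraries are unknown, and nothing was tested between samples. A narrow-peak caller can split broad marks into many peaks.

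Gene records and promoter stretches came from RefSeq, GRCh38.p14, the same build. Records carry no strand, so windows of 1000 bp around both ends were used, with an overlap of at least 1 bp. Strand and starts came from the promoter table. Percentiles are among genes on chromosomes 1 to 22 with a peak of that target. The windows of 30 members overlap those of another gene, and 14 of the 43 KDM2B peaks were also the highest of another gene. Sharing is not named for every such gene. The members, role groups and comparison lists were chosen with earlier results of these data known. Named genes were the 5 highest folds in each list, the highest and lowest KDM2B fold of each role group, genes lacking a frequent target, genes with a Polycomb mark, paralogues side by side and all members of counts of 5 or fewer. Other names were chosen after their values were seen. Overlap counting was tested on simulated peaks. Analyses used Python 3.11.15, pandas 2.3.3, numpy 2.4.6, scipy 1.17.1 and matplotlib 3.10.9. Alternatives were other windows, stricter q-values, the 15000 peaks of highest fold, summits, single ends, and 2 settings added after seeing the data.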

Additional observations from a re-analysis of the deposited data

How the results depend on the processing

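No paired analysis was possible because each target has 1 deposited list that does not resolve its libraries, and no result comes from a test. In all 11 settings the share of translation factor genes was above that of all genes for KDM2B, MYC, H3K4me3, H3K27ac, KDM2B with MYC and the active pattern without Polycomb marks, and below it for H2AK119ub and H3K27me3. Of 88 shares 12 moved beyond the 95% interval of the main value, and of 59 medians 1 did. The share of all genes under the same setting is given beside each of these. The interval was computed over the genes, as a Wilson binomial interval for shares and from the ordered folds for medians. It treats genes as independent and holds no error between libraries, so it is only a yardstick for the size of a shift. With q under 1e-5 the share with KDM2B was 54.0% (all genes 38.1%), that with KDM2B and MYC 54.0% (37.9%) and that with H2AK119ub 9.52% (29.7%). With the 15000 peaks of highest fold, H3K27ac was at 82.5% (47.7%), H2AK119ub at 3.17% (11.2%) with a median fold of 3.88 (3.85), and H3K27me3 at 0% (6.62%). With summits, H3K4me3 was at 84.1% (61.1%). With the start end alone, H2AK119ub was at 12% of 50 genes (32.8%). With the end that carries H3K4me3, H2AK119ub was at 14.3% (24.6%) and H3K27me3 at 3.17% (6.56%). In the settings added after seeing the data, H2AK119ub was at 12% around every annotated start (35.6%) and at 36.5% over the whole record (60.2%). The KDM2B peaks at 9 of the 43 genes had a −log10 q under 5: EEF1G, EIF1B, EIF3E, EIF3G, EIF3H, EIF3I, EIF3K, EIF4B and EIF4G3. Unknown read depth means that a missing peak is not shown to be a missing mark.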

Other observations

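Pseudogenes named after these genes were counted in the same way. They were picked by symbol and not sorted into processed and other copies. Of 143 pseudogenes whose symbols derive from translation factor genes, 44 derive from EEF1A1. KDM2B was at an end of 3 of them (2.10%, against 3.12% of 15727 pseudogenes), MYC at 7 (4.90% against 7.03%) and H3K4me3 at 15 (10.5% against 10.9%). H2AK119ub was at 20 (14.0% against 23.3%) and H3K27me3 at 37 (25.9% against 30.1%). The pseudogenes with KDM2B were EEF1A1P18, with a fold of 9.67 and MYC at 12.9, EEF1DP1, with 7.06 and 6.33, and EEF1DP3, with 4.17 and 5.43. The KDM2B fold at EEF1A1P18 was higher than at any of the 63 translation factor genes. EEF1A1P18 also had H3K4me3 at 33.8 and H3K27ac at 12.7. Whether the windows of these pseudogenes reach the promoters of neighbouring genes was not checked, so the peaks cannot be given to the pseudogenes themselves. Reads of such copies can map to more than 1 place, and the handling of such reads by the authors is not stated.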
